A study of Homo sapiens with 24 samples.

Results

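The difference between BJ-hTERT and HEK293 cells in their response to 72 h of fusion gene induction was measured on 12 of the 24 arrays of the series. These are all the arrays taken at 72 h, chosen by their labelled time. For each gene the doxycycline effect (doxycycline minus mock, log2) was taken in each line, and the HEK293 effect was subtracted from the BJ-hTERT effect. This line difference is above 0 where the effect was more positive in BJ-hTERT and below 0 where it was more positive in HEK293.

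The 4 groups had 3 arrays each. They were BJ-hTERT treated with doxycycline, BJ-hTERT given the water vehicle (mock), HEK293 treated with doxycycline and HEK293 given the vehicle, all sampled at 72 h. BJ-hTERT is a human foreskin fibroblast line immortalised with telomerase, and HEK293 is a human embryonic kidney line. All 4 groups carried an inducible HA-tagged YWHAE-NUTM2 construct, the mock groups included. No group received doxycycline without that construct, so an effect of the fusion and an effect of the drug cannot be told apart. The labels do not say that replicates were separate cultures or how many clones a line represents, so the p-values speak only of how much these arrays varied, which may be technical.

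YWHAE encodes 14-3-3 epsilon, an adaptor that binds phosphorylated proteins and steers kinases, phosphatases and transcription regulators to their place in the cell. Fusions of YWHAE with a NUTM2 gene are found in a childhood renal tumour, clear cell sarcoma of the kidney (CCSK), and in high-grade endometrial stromal tumours. Cells of different origin start from different sets of active genes, and the same oncogene can therefore be read out against different backgrounds. The title of the series names disturbed signalling and altered migration in CCSK as its subject.

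The values are log2 intensities, averaged over the probe sets that name a single gene. Correlations across genes, which are not independent replicates, ranged over r = 0.974 to 0.979 within a group, 0.963 to 0.974 between treatments of a line and 0.775 to 0.789 between lines. The medians of the arrays lay within 0.21 log2 of each other, and by these measures no array stood apart from its group. The lines matched their labels by cell markers. Of 12 fibroblast markers 11 reached the filter value of log2 2.83 in both BJ-hTERT groups and 8 in both HEK293 groups, with array means of 7.76 to 8.01 in BJ-hTERT and 3.27 to 3.40 in HEK293. All 7 HEK293 markers reached it in HEK293 (array means 6.74 to 7.18) and 4 in BJ-hTERT (3.32 to 3.78). Keratinocyte, melanocyte, endothelial and leukocyte markers had array means of at most 3.05 in either line.

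Transcripts read by NUTM2 probe sets, the fusion partner, rose in both lines. NUTM2 genes are named by 34 distinct probe sets. Of these, 14 rose in BJ-hTERT (0.418% of all probe sets were called, 0.154% as rises) and 11 in HEK293 (0.051% called, 0.0405% as rises), and the 11 were called in both lines. Averaged over those 11, the level was 8.20, 8.14 and 8.71 in BJ-hTERT doxycycline arrays, against 4.92, 4.85 and 5.33 in BJ-hTERT mock arrays. In HEK293 it was 8.09, 8.09 and 8.01 in doxycycline arrays, against 4.42, 4.44 and 4.92 in mock arrays. The doxycycline arrays of both lines lay above all mock arrays. The mean effect was 3.32 in BJ-hTERT and 3.47 in HEK293, a difference of -0.15 ± 0.29 (SE over arrays). The 11 were picked for a called rise in both lines on these same arrays, which favours groups apart and effects alike. Probe sets called in BJ-hTERT alone are left out of this mean, so it does not show equal induction. None of the 34 probe sets was called for the line difference by limma (0.0377% of all probe sets were called, 0.0142% above 0), and 4 had an unadjusted p under 0.05. Of the 11, 8 name several NUTM2 paralogs, so which paralog was read was not separated.

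Of 17329 genes tested, limma called 914 for the line difference (5.27%), 420 above 0 (2.42%) and 494 below 0 (2.85%). A gene is called at a Benjamini-Hochberg adjusted p under 0.05 with no minimum fold. The difference reached 1 log2 in 366 of the called genes, 139 above 0 and 227 below. Within BJ-hTERT 1494 genes were called (8.62%), 699 up and 795 down, and within HEK293 210 genes (1.21%), 165 up and 45 down. Across all tested genes the effects of the lines correlated at r = -0.016.

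Most called line differences came from genes that moved in BJ-hTERT. In 639 of the 914 the BJ-hTERT effect was called and the HEK293 effect was not, with 311 that rose and 328 that fell in BJ-hTERT. In 118 the HEK293 effect alone was called, 97 up and 21 down. Both effects were called with opposite signs in 17 genes (0.0981% of genes tested) and with the same sign in 3, and neither was called in 137. A call for the difference favours opposite signs, so 17 against 3 does not tell how often the lines agreed. Over the 914 genes the median size of the effect was 0.67 log2 in BJ-hTERT and 0.25 log2 in HEK293, against 0.20 and 0.16 over all genes tested. The 914 were selected for the difference itself, so larger effects are built into these medians. A gene that a line hardly expresses can show no fall there: in 81 of the 914 both 72 h groups of a line lay below the filter value, against 2895 of the 17329 genes tested. The plot of the 2 effects against each other shows these classes as a cross along its axes.

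**Figure D1:**
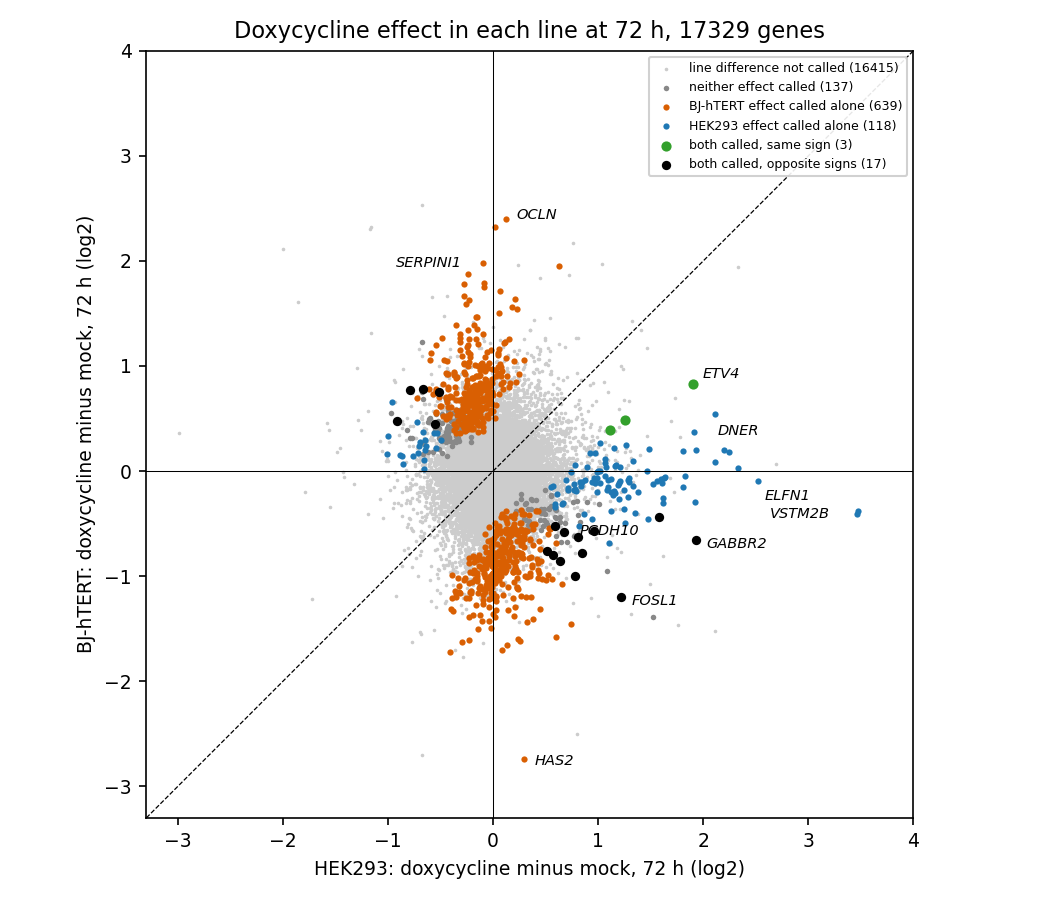
Doxycycline effect at 72 h (log2) in BJ-hTERT on the vertical axis and in HEK293 on the horizontal axis, 1 point per gene tested, coloured by which effects were called among the genes called for the line difference. The 639 genes called in BJ-hTERT alone lie along the vertical axis and the 118 called in HEK293 alone along the horizontal axis; the dashed line marks equal effects.

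Genes of mitosis, DNA replication and histone supply held many of the called line differences, and each member called for the difference had also fallen in BJ-hTERT. Among the 33 genes of G2 and mitosis, 31 fell in BJ-hTERT (4.59% of all genes fell) and 0 in HEK293 (0.26% fell), and 21 were called below 0 for the line difference and 0 above. When probe sets were summarised by their median in place of their mean, 12 were called. The median line difference of this list was -0.79, against -0.02 over all genes tested, with a median effect of -0.98 in BJ-hTERT and -0.15 in HEK293. The lists were chosen with earlier results of these data known and are given as descriptions. Members called in this and every later list stand against 2.42% of all genes called above 0 and 2.85% below. In RNA from whole cultures, fewer dividing cells and less of these RNAs per dividing cell cannot be told apart.

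PLK1 encodes Polo-like kinase 1, which drives entry into mitosis and spindle formation. It read 8.53, 8.54 and 8.57 in BJ-hTERT doxycycline arrays, against 9.55, 9.62 and 9.63 in BJ-hTERT mock arrays. In HEK293 it read 9.67, 9.77 and 9.80 in doxycycline arrays, against 9.83, 9.67 and 9.80 in mock arrays. The BJ-hTERT groups were apart and the HEK293 groups overlapped. The line difference was -1.03 ± 0.13 log2 (limma SE, n = 3 arrays per group, as for all values after ± below unless SD is written; adjusted p = 9.8e-05). The Aurora kinase gene AURKB, whose product corrects spindle attachments, had a line difference of -1.08 ± 0.17 (BJ-hTERT -1.18, HEK293 -0.09). The spindle checkpoint kinase gene BUB1 stood at -1.09 ± 0.17. The spindle assembly factor gene TPX2, also called, had an effect of -1.02 in BJ-hTERT and -0.02 in HEK293. Not every member differed between the lines. The mitotic kinase gene CDK1, named after its values were seen, had effects of -0.43 in BJ-hTERT and -0.32 in HEK293, neither of them called. NUF2 and SPC25 of the kinetochore, also named afterwards, fell in BJ-hTERT by 1.16 and 1.13 on the log2 scale, but with uncalled HEK293 effects of -0.50 and -0.53 their line differences were not called.

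Replication genes gave the highest share of calls among the 41 lists described. All 32 replication and S phase genes tested fell in BJ-hTERT and 0 changed in HEK293, and 25 were called below 0 for the line difference. The median line difference was -0.84, with a median effect of -0.84 in BJ-hTERT and 0.04 in HEK293. POLA1 encodes the catalytic subunit of DNA polymerase alpha, which starts new DNA strands. Its level was 6.13, 6.03 and 5.83 in BJ-hTERT doxycycline arrays, against 7.26, 7.13 and 7.15 in BJ-hTERT mock arrays, and 8.45, 8.50 and 8.41 in HEK293 doxycycline arrays, against 8.30, 8.52 and 8.27 in HEK293 mock arrays. Again the fibroblast groups were apart and the HEK293 groups overlapped, and the line difference was -1.27 ± 0.15 (adjusted p = 5.9e-05). The replicative helicase gene MCM3 differed by -0.87 ± 0.13 with a HEK293 effect of 0.00 to 2 decimals, thymidylate synthase TYMS by -1.02 ± 0.15, and the phosphatase gene CDC25A, which activates cyclin-dependent kinases, by -0.92 ± 0.15.

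Averaged over the lists, the arrays showed the same split. The mean level of the 33 mitosis genes was 7.19, 7.21 and 7.20 in BJ-hTERT doxycycline arrays, against 8.10, 8.07 and 8.25 in BJ-hTERT mock arrays. In HEK293 it was 7.94, 7.91 and 7.96 in doxycycline arrays, against 8.12, 8.18 and 8.04 in mock arrays. HEK293 doxycycline arrays thus also lay just below their mock arrays, without a called member. The 32 replication genes averaged 6.30, 6.28 and 6.30 in BJ-hTERT doxycycline arrays, against 7.10, 7.12 and 7.15 in BJ-hTERT mock arrays, while in HEK293 they averaged 7.79, 7.83 and 7.80 in doxycycline arrays, against 7.82, 7.78 and 7.74 in mock arrays, which overlap.

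Promoters of these genes are shown because cell cycle genes are known to be controlled through a few short sequences close to the start of transcription: the CHR (TTTGAA), bound by the DREAM and MMB complexes, the CCAAT box (CCAAT), bound by NF-Y, and E2F sites (searched as GCGGGAA). The 200 bases before the start of 4 genes that fell in BJ-hTERT are followed by those of GABBR2, which fell in BJ-hTERT and rose in HEK293. They read 5′ to 3′ on the strand of the gene, from RefSeq (GRCh38.p14), with every match to these letters on either strand in capitals. They lie at chr16:23678689-23678888 (PLK1, plus strand), chr2:110678064-110678263 (BUB1, minus strand), chr6:52284743-52284942 (MCM3, minus strand), chrX:24693718-24693917 (POLA1, plus strand) and chr9:98708936-98709135 (GABBR2, minus strand).
PLK1: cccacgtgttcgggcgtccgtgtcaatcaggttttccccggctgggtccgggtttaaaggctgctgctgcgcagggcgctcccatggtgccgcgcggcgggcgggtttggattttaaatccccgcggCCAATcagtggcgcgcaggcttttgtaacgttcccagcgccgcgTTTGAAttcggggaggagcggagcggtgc
BUB1: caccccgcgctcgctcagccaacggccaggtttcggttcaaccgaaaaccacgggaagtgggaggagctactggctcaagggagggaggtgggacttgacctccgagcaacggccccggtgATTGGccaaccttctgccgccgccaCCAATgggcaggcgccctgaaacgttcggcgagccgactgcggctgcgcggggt
MCM3: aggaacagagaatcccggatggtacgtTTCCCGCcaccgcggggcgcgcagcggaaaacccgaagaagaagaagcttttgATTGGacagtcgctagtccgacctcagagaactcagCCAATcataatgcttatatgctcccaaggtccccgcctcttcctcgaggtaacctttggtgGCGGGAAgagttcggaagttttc
POLA1: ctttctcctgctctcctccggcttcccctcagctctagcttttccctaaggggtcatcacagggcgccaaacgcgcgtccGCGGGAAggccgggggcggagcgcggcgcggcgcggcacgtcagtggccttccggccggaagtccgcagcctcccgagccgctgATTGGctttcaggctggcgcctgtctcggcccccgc
GABBR2: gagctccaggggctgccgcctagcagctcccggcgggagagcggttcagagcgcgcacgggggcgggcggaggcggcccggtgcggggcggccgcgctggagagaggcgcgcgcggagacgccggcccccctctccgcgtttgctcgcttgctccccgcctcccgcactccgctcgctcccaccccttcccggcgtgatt

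PLK1 held a CCAAT box at base -73 and a CHR at base -29 from the start, BUB1 held CCAAT boxes at -79 and -54, and MCM3 held E2F matches at -173 and -23 with CCAAT boxes at -120 and -84. POLA1 held an E2F match at -120 and a CCAAT box at -36, and GABBR2 held none of the 3. The matches shown do not overlap one another. Over the called G2 and mitosis genes, 10 of 18 with a promoter entry held a CHR (55.6%) and 15 a CCAAT box (83.3%), against 6.47% and 30.4% of the 12803 tested genes with an entry. Over the called replication genes, 10 of 22 held the E2F letters (45.5%, against 6.83% of tested genes) and 0 held a CHR. The whole class that fell in BJ-hTERT alone had lower shares: 48 of 272 held a CHR (17.6%), 136 a CCAAT box and 37 the E2F letters (13.6%). Of genes that rose in BJ-hTERT alone, 10 of 264 held a CHR (3.79%), 77 a CCAAT box (29.2%) and 14 the E2F letters (5.3%). Among genes that rose in HEK293 alone, 2 of 63 held a CHR (3.17%), 16 a CCAAT box (25.4%) and 1 the E2F letters (1.59%). Uncalled members of the mitosis and replication lists were not counted. Whether the shares go with the call or with the list was therefore not tested. Over all 27305 promoters of the table the shares were 10.5% for the CHR, 28.9% for the CCAAT box and 4.66% for the E2F letters. A match describes letters in this window and does not show that a factor binds there.

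Replication-dependent histone genes, which supply new chromatin in S phase, had the lowest median BJ-hTERT effect of the 41 lists, -1.28. Of 25 tested, 20 fell in BJ-hTERT and 0 in HEK293, and 14 were called below 0 for the line difference, with a list median of -1.17. HIST1H2AB (now H2AC4) read 7.69, 7.69 and 7.78 in BJ-hTERT doxycycline arrays, against 8.99 to 9.06 over the 3 BJ-hTERT mock arrays, and 9.70, 9.54 and 9.47 in HEK293 doxycycline arrays, against 9.38, 9.30 and 9.41 in HEK293 mock arrays. Its HEK293 groups did not overlap, with doxycycline the higher, but the HEK293 effect of 0.21 was not called. The line difference was -1.50 ± 0.17 (adjusted p = 3.8e-05). The linker histone gene HIST1H1E (now H1-4) differed by -1.39 ± 0.16 and HIST1H4D (now H4C4) by -1.24 ± 0.15. HIST1H3G (now H3C8) and HIST1H2BM (now H2BC14) differed most, by -2.19 ± 0.45 and -2.18 ± 0.63, with 2 probe sets each. HIST1H3G stayed below the filter value in both HEK293 groups, and the HIST1H2BM call was lost in 16 of 24 alternative settings. Histone genes are near-identical copies, so probe sets of one may read RNA of another.

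DNA repair genes and cell cycle regulators followed the same direction. Of 21 DNA repair and Fanconi genes 16 fell in BJ-hTERT (4.59% of all genes fell) and 0 in HEK293 (0.26% fell). For the line difference 9 were called below 0, against 2.85% of all genes, and the list median was -0.73. The 9 calls became 4 when probe sets were summarised by their median. FANCA, of the Fanconi core complex, differed by -1.05 ± 0.16, FANCD2, which that complex ubiquitinates, by -1.02 ± 0.17, and the exonuclease gene EXO1 by -1.04 ± 0.18. Of 19 E2F, retinoblastoma family and cyclin genes 4 were called below 0. The transcription factor genes MYBL2 (-0.98 ± 0.17) and FOXM1 (-0.99 ± 0.23) and the p107 gene RBL1 (-0.98 ± 0.19) fell in BJ-hTERT by 0.86, 0.94 and 1.04 log2. The fourth, CCND1, encodes cyclin D1, which couples growth signals to the cell cycle, and it reached its difference of -0.93 ± 0.20 the other way. It rose in HEK293, with 7.35, 7.62 and 7.45 in HEK293 doxycycline arrays, against 6.14, 6.33 and 6.50 in HEK293 mock arrays, while the BJ-hTERT effect of 0.22 was not called. Of 21 ribosome biogenesis genes all 21 estimates lay below 0, but FBL, the fibrillarin gene, was the only one called (-0.85 ± 0.15), and the list median was -0.38.

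**Figure D2:**
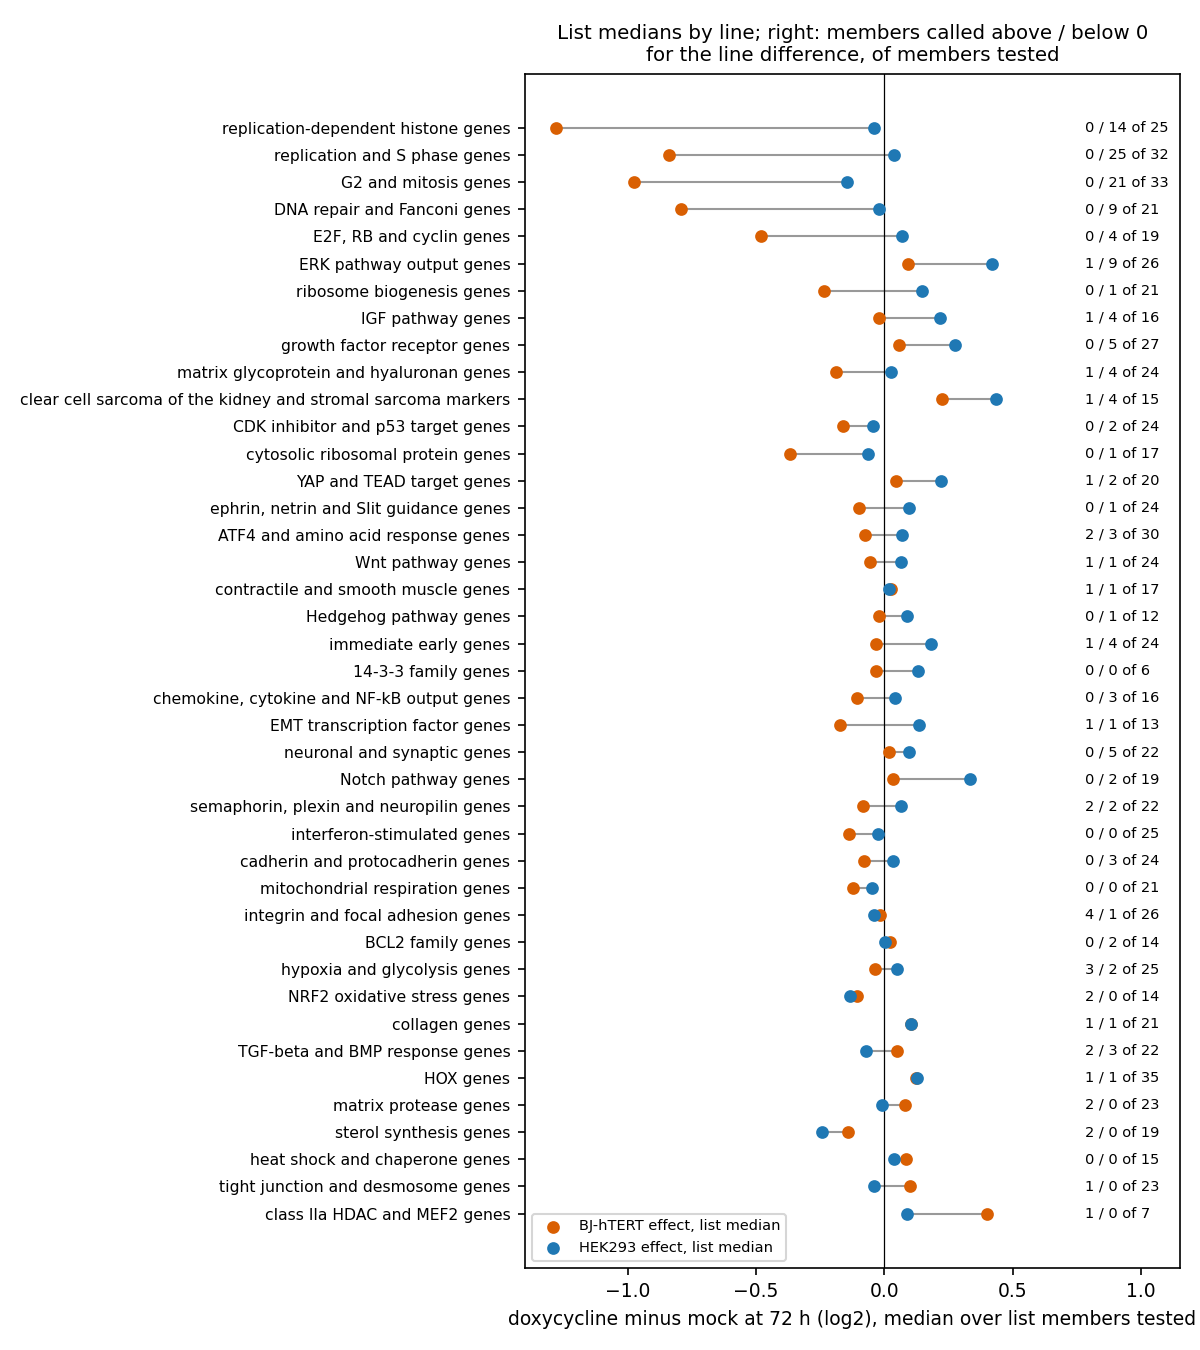
Median doxycycline effect at 72 h (log2) over the tested members of each of 41 gene lists, with BJ-hTERT in orange and HEK293 in blue, ordered by the median line difference. Numbers on the right count members called above and below 0 for the line difference; the replication, mitosis and histone lists at the top have BJ-hTERT medians of -0.84, -0.98 and -1.28 with HEK293 medians near 0.

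Of 24 matrix glycoprotein and hyaluronan genes 3 rose and 8 fell in BJ-hTERT, and of 16 chemokine, cytokine and NF-kB output genes 1 rose and 5 fell there (4.03% of all genes rose and 4.59% fell). In HEK293 1 gene of the first list rose and 0 fell, and 0 of the second changed. HAS2 encodes the hyaluronan synthase that lays down much of the sugar coat around fibroblasts. It read 5.11, 5.46 and 3.86 in BJ-hTERT doxycycline arrays, against 7.86, 7.49 and 7.30 in BJ-hTERT mock arrays, and 4.02, 3.94 and 3.66 in HEK293 doxycycline arrays, against 3.49, 3.48 and 3.77 in HEK293 mock arrays. The BJ-hTERT groups were wide apart although the third doxycycline array was lower than its companions, and the HEK293 groups overlapped. The line difference was -3.03 ± 0.43 (adjusted p = 0.00031), the second most negative among genes with a standard name. The chemokine gene CXCL12 differed by -1.79 ± 0.27, the osteoprotegerin gene TNFRSF11B, a decoy receptor for RANKL, by -1.88 ± 0.37, and TNFAIP3, which encodes the NF-kB inhibitor A20, by -1.35 ± 0.27. These were the 3 of the chemokine, cytokine and NF-kB list called for the line difference. In HEK293 all 3 had effects of at most 0.26, none called. CCL2, which fell in BJ-hTERT by 1.63 log2, had an uncalled HEK293 effect of -0.77 and no called difference; it is named after its values were seen.

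The Wnt antagonist gene SFRP1 read 5.80, 5.75 and 5.40 in BJ-hTERT doxycycline arrays, against 7.03, 7.13 and 6.99 in BJ-hTERT mock arrays, and differed by -1.79 ± 0.27. The contractile kinase gene MYLK differed by -1.36 ± 0.22, the matrix protein gene TNC (tenascin C) by -1.06 ± 0.20, the activin antagonist gene FST by -1.41 ± 0.26 and the receptor kinase gene AXL by -1.12 ± 0.22. All 5 fell in BJ-hTERT and none was called in HEK293, though the AXL effect there was 0.53 with groups that did not overlap. The other called member of the contractile list was LMOD1, a muscle actin filament gene, which rose in BJ-hTERT by 0.62 log2 (difference 1.13 ± 0.27). Of the 24 matrix glycoprotein and hyaluronan genes 1 was called above 0 for the line difference and 4 below. The one above was FBLN5, an elastic fibre protein gene that rose in BJ-hTERT (difference 1.08 ± 0.21). The 4 below were HAS2, TNC, the large proteoglycan gene VCAN (versican, -0.63 ± 0.15) and the lysyl oxidase gene LOXL2. LOXL2 was chosen after its values were seen: it rose in HEK293 by 0.96 log2 with a BJ-hTERT effect of -0.07. With probe sets summarised by their median, 2 members of the matrix glycoprotein and hyaluronan list were called for the line difference.

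Rises confined by the calls to BJ-hTERT led the positive side of the line difference. OCLN encodes occludin, a tight junction protein of epithelia. It read 6.02, 5.83 and 5.62 in BJ-hTERT doxycycline arrays, against 3.17, 3.44 and 3.68 in BJ-hTERT mock arrays, and 6.40, 6.76 and 6.76 in HEK293 doxycycline arrays, against 6.27, 6.63 and 6.67 in HEK293 mock arrays. BJ-hTERT doxycycline arrays lay close below the level that HEK293 held with either treatment. The BJ-hTERT effect was 5.26-fold and the line difference 2.28 ± 0.26 (adjusted p = 5.5e-05). It was the only one called of 23 tight junction and desmosome genes, whose median line difference was 0.10.

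The neuroserpin gene SERPINI1, an inhibitor of tissue plasminogen activator, read 5.83, 6.39 and 6.29 in BJ-hTERT doxycycline arrays, against 4.32, 4.21 and 4.03 in BJ-hTERT mock arrays, and 4.04, 3.27 and 3.66 in HEK293 doxycycline arrays, against 3.72, 4.04 and 3.50 in HEK293 mock arrays. Its line difference was 2.08 ± 0.28 (adjusted p = 0.00021), with overlapping HEK293 groups. The legumain gene LGMN, a lysosomal protease, read 8.33, 8.50 and 8.62 in BJ-hTERT doxycycline arrays, against 6.94, 6.73 and 6.64 in BJ-hTERT mock arrays (line difference 1.66 ± 0.22). The arylsulfatase gene ARSK differed by 1.65 ± 0.23 and the acid phosphatase gene ACPP (now ACP3) by 1.88 ± 0.28. EPB41L5, a regulator of epithelial polarity and adhesion, differed by 1.85 ± 0.22, the phospholipase gene GPLD1 by 1.86 ± 0.23, ANKRD29 by 2.06 ± 0.38, and GPR155 by 1.95 ± 0.26. All of these rose in BJ-hTERT and had HEK293 effects between -0.60 and 0.06, none called.

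The stress factor gene ATF3 read 4.76, 4.69 and 4.67 in BJ-hTERT doxycycline arrays, against 3.21, 2.26 and 3.38 in BJ-hTERT mock arrays, while its HEK293 effect was -0.09, and the line difference was 1.84 ± 0.40 (adjusted p = 0.0077). The homeobox gene HOXA5, a patterning factor, differed by 1.45 ± 0.21 and the muscle and neural factor gene MEF2C by 1.30 ± 0.29. The myosin light chain gene MYL12A differed by 1.71 ± 0.28. Some of the largest estimates are uncertain. GOLGA8B (2.31 ± 0.65), PCDHB9 (1.74 ± 0.42) and PCDHAC2 (1.74 ± 0.30) rest on 1 probe set each and belong to families of similar copies or shared exons, and GOLGA8B lost its call in 13 of the 24 alternatives. PCDHAC2 lay below the filter value in both BJ-hTERT groups, with means of 1.02 in mock and 2.22 in doxycycline arrays. PCDHB9 lay below it in both HEK293 groups, and GOLGA8B in BJ-hTERT mock (1.16).

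Of 26 integrin and focal adhesion genes 4 rose and 4 fell in BJ-hTERT (4.03% and 4.59% of all genes) and 0 changed in HEK293. For the line difference 4 were called above 0 and 1 below, with a list median of -0.05. ITGA11, a collagen-binding integrin subunit of fibroblasts, read 8.05, 8.15 and 8.17 in BJ-hTERT doxycycline arrays, against 6.88, 6.86 and 7.23 in BJ-hTERT mock arrays, and lay below the filter value in both HEK293 groups (difference 1.20 ± 0.21). ITGB8, which activates latent TGF-beta, differed by 1.26 ± 0.24, the collagen receptor subunit gene ITGA1 by 0.97 ± 0.22 and ITGAV, the partner of several beta subunits, by 0.75 ± 0.19, a call lost in 7 of 24 alternatives. ITGA3, chosen after its values were seen, fell in BJ-hTERT by 0.54 log2 and was the one called below 0. The fibrillar collagen gene COL11A1 differed by 1.10 ± 0.23 and the TGF-beta receptor gene TGFBR1 by 0.91 ± 0.17. The 5 calls became 2 with only the 12 arrays of 72 h in the fit and 3 to 5 without single arrays.

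**Figure D3:**
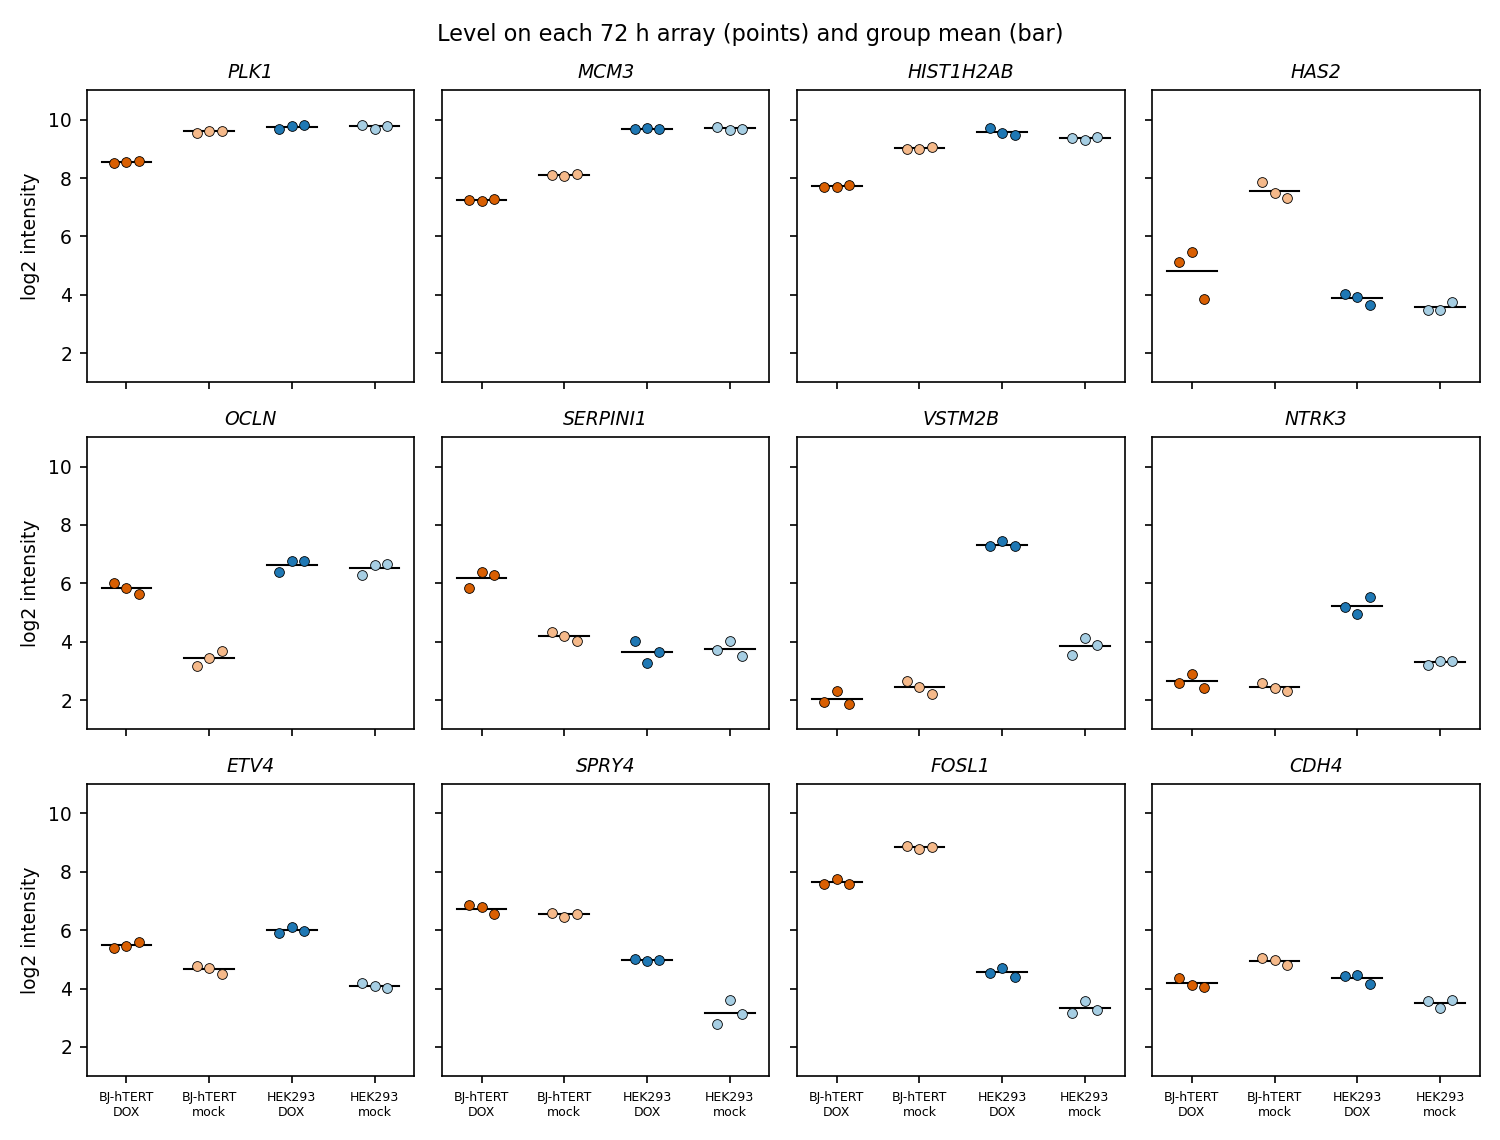
Log2 intensity of 12 genes on each 72 h array, with BJ-hTERT doxycycline, BJ-hTERT mock, HEK293 doxycycline and HEK293 mock arrays in columns from left to right; points are arrays and bars are group means. PLK1, MCM3, HIST1H2AB and HAS2 are lower with doxycycline in BJ-hTERT alone, OCLN and SERPINI1 higher in BJ-hTERT alone, VSTM2B, NTRK3 and SPRY4 higher in HEK293 alone, ETV4 higher in both, and FOSL1 and CDH4 move in opposite directions.

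On the HEK293 side, the largest line difference was that of VSTM2B. This gene, which encodes a transmembrane protein of the immunoglobulin superfamily, read 1.94, 2.29 and 1.87 in BJ-hTERT doxycycline arrays, against 2.66, 2.45 and 2.20 in BJ-hTERT mock arrays, and 7.27, 7.43 and 7.27 in HEK293 doxycycline arrays, against 3.53, 4.14 and 3.90 in HEK293 mock arrays. All BJ-hTERT arrays lay below the filter value, and the HEK293 groups were wide apart. It rose 11.1-fold in HEK293, and the line difference was -3.87 ± 0.35 (adjusted p = 2.9e-06). ELFN1, a synaptic adhesion protein gene, read 3.37, 3.11 and 2.91 in BJ-hTERT doxycycline arrays, against 2.92, 3.40 and 3.36 in BJ-hTERT mock arrays, and 6.04, 6.00 and 6.33 in HEK293 doxycycline arrays, against 3.46, 3.75 and 3.60 in HEK293 mock arrays (difference -2.61 ± 0.27). The synapse organiser gene LRRTM1 differed by -2.21 ± 0.34 and lay below the filter value in both BJ-hTERT groups. Its HEK293 mock mean of 2.78 lay below that value too. Among the 72 h groups only HEK293 doxycycline reached it (4.70), so the size of this difference is uncertain.

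Of 22 neuronal and synaptic genes 5 were called below 0 and 0 above, and 6 rose in HEK293 (0.952% of all genes rose) against 0 in BJ-hTERT (4.03% rose). The list median was -0.15, so most members did not share the difference. Other large HEK293 rises without a called BJ-hTERT effect were in the homeobox gene NKX6-2 (difference -2.06 ± 0.40), the kisspeptin receptor gene KISS1R (HEK293 effect 1.58 ± 0.33), the Notch ligand gene DNER (-1.99 ± 0.24), the Notch target gene HES7 (-1.97 ± 0.38) and the corticotropin-releasing hormone receptor gene CRHR1 (-1.93 ± 0.29). CLEC18A (-2.02 ± 0.56) lost its call in 13 of the 21 alternatives that gave a value for it and has near-identical copies. Among the 72 h groups it reached the filter value only in HEK293 doxycycline (mean 3.84, against 1.73 in HEK293 mock), so the size of its difference is uncertain. HES7 lay below the filter value in both BJ-hTERT groups (means 2.67 with doxycycline and 2.82 with mock). For CRHR1 the BJ-hTERT doxycycline arrays lay below all BJ-hTERT mock arrays, with an uncalled effect of -0.46. DNER was well above the filter value in BJ-hTERT too, at 4.95, 4.63 and 4.95 in doxycycline arrays, against 4.45, 4.77 and 4.71 in mock arrays, which overlap.

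Of 27 growth factor receptor genes 5 were called below 0 (2.85% of all genes were) and 0 above (2.42%), with a median line difference of -0.32. In HEK293 5 rose (0.952% of all genes rose), and in BJ-hTERT 2 rose and 2 fell (4.03% and 4.59% of all genes). NTRK3 encodes TrkC, the receptor of neurotrophin 3. It read 2.60, 2.89 and 2.42 in BJ-hTERT doxycycline arrays, against 2.58, 2.41 and 2.32 in BJ-hTERT mock arrays, and 5.18, 4.96 and 5.53 in HEK293 doxycycline arrays, against 3.19, 3.35 and 3.33 in HEK293 mock arrays. The HEK293 groups were apart, the BJ-hTERT groups overlapped around a level below the filter value, and the line difference was -1.73 ± 0.23 (adjusted p = 0.00017). NGFR, the low-affinity neurotrophin receptor gene, differed by -1.54 ± 0.30, the EGF receptor gene EGFR by -0.97 ± 0.23 and the insulin-like growth factor receptor gene IGF1R by -0.80 ± 0.15. The IGF1R difference fell to -0.24 and lost its call when probe sets were summarised by their median. Under that summary 3 members of the growth factor receptor list were called. The fifth was AXL, with a called effect of -0.60 in BJ-hTERT and an uncalled effect of 0.53 in HEK293. IGF1R and EGFR were bright in both lines. IGF1R read 8.44, 8.45 and 8.26 in BJ-hTERT doxycycline arrays, against 8.13, 8.35 and 8.16 in BJ-hTERT mock arrays, and 9.15, 9.31 and 9.29 in HEK293 doxycycline arrays, against 8.38, 8.23 and 8.24 in HEK293 mock arrays. Of 15 markers of CCSK and of uterine stromal sarcoma 1 was called above 0 (CD99, 0.49 ± 0.12, chosen after its values were seen) and 4 below. The 4 were NTRK3, NGFR, CCND1 and EGFR, which other lists here hold as well.

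Of 22 TGF-beta and BMP response genes 2 were called above 0 (2.42% of all genes were) and 3 below (2.85%). BMP6 and NOG, among these 3, rose in HEK293 with no called BJ-hTERT effect. BMP6, a bone morphogenetic protein, read 8.37, 8.16 and 8.08 in HEK293 doxycycline arrays, against 6.52, 6.73 and 6.56 in HEK293 mock arrays, and its BJ-hTERT group means lay below the filter value (difference -1.67 ± 0.24). Its antagonist gene NOG (noggin) read 5.70, 5.51 and 5.49 in BJ-hTERT doxycycline arrays, against 5.93, 5.76 and 5.54 in BJ-hTERT mock arrays, and 7.33, 7.21 and 7.33 in HEK293 doxycycline arrays, against 6.11, 6.12 and 6.39 in HEK293 mock arrays (difference -1.26 ± 0.26). The semaphorin receptor gene PLXNC1 rose in HEK293 too, with a difference of -1.53 ± 0.23 and both BJ-hTERT groups below the filter value. The guidance factor gene SEMA3C fell in HEK293 by 0.67 log2 and the IGF-binding protein gene IGFBP7 by 0.71 log2, each with an uncalled BJ-hTERT effect above 0, so that their differences were 1.04 ± 0.20 and 0.89 ± 0.19.

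ERK pathway output genes are transcribed when growth factor receptors signal through the ERK kinases. Of 26 tested, 6 rose and 2 fell in BJ-hTERT (4.03% and 4.59% of all genes) and 8 rose and 0 fell in HEK293 (0.952% and 0.26% of all genes). Their median effect was 0.09 in BJ-hTERT and 0.42 in HEK293. Array means over the list overlapped between doxycycline and mock in BJ-hTERT and were apart in HEK293. The line difference was called in 1 above 0 and 9 below, with a median of -0.42, and 4 were called when probe sets were summarised by their median. SPRY4, a Sprouty feedback inhibitor of ERK signalling, read 6.86, 6.78 and 6.54 in BJ-hTERT doxycycline arrays, against 6.60, 6.45 and 6.57 in BJ-hTERT mock arrays, and 5.02, 4.95 and 4.97 in HEK293 doxycycline arrays, against 2.78, 3.61 and 3.13 in HEK293 mock arrays. BJ-hTERT held the higher level with either treatment, and the HEK293 rise of 3.51-fold left HEK293 below it. The line difference was -1.62 ± 0.25 (adjusted p = 0.00062). Its relative SPRY1, chosen after its values were seen, went the other way: it rose in BJ-hTERT by 0.78 log2 with an uncalled HEK293 effect of -0.11, and was the one called above 0 (0.88 ± 0.20). Chosen likewise, the ETS factor gene ETV5 and the ERK phosphatase gene DUSP4 rose in HEK293 alone, with differences of -1.57 ± 0.33 and -1.36 ± 0.28. MYC, also chosen afterwards, had a called difference of -1.12 ± 0.25 with neither effect called (BJ-hTERT -0.49, HEK293 0.64).

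The ETS factor gene ETV4, a direct ERK target, rose in both lines. It read 5.40, 5.47 and 5.61 in BJ-hTERT doxycycline arrays, against 4.79, 4.70 and 4.51 in BJ-hTERT mock arrays, and 5.89, 6.11 and 5.98 in HEK293 doxycycline arrays, against 4.19, 4.08 and 4.01 in HEK293 mock arrays. The groups were apart in both lines, and the rise was 1.77-fold in BJ-hTERT and 3.73-fold in HEK293, a line difference of -1.07 ± 0.18 (adjusted p = 0.0014). Only 2 other genes were called in both lines with the same sign and for the difference. The collagen gene COL12A1 rose by 0.48 ± 0.12 in BJ-hTERT and 1.25 ± 0.12 in HEK293 (difference -0.77 ± 0.17), and FSCN1, which encodes the actin bundler fascin, by 0.39 ± 0.12 and 1.11 ± 0.12 (difference -0.72 ± 0.16). Among immediate early genes, JUNB, an AP-1 subunit, rose in HEK293 alone (difference -1.20 ± 0.17) and KLF4 fell in BJ-hTERT alone (-0.91 ± 0.20). Of 24 such genes 1 was called above 0, ATF3, and 4 below. With probe sets summarised by their median, 1 member of this list was called.

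Genes that moved in opposite directions are the sharpest form of the line difference. FOSL1 encodes FRA1, the AP-1 subunit that mesenchymal and migrating cells use. It read 7.57, 7.75 and 7.59 in BJ-hTERT doxycycline arrays, against 8.87, 8.77 and 8.86 in BJ-hTERT mock arrays, and 4.53, 4.71 and 4.41 in HEK293 doxycycline arrays, against 3.15, 3.58 and 3.26 in HEK293 mock arrays. The groups were apart in both lines and the level of HEK293 stayed far below that of BJ-hTERT throughout. The effect was -1.20 ± 0.17 in BJ-hTERT and 1.22 ± 0.17 in HEK293, a difference of -2.42 ± 0.24 (adjusted p = 8.3e-06).

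GABBR2, a subunit of the GABA-B receptor, read 3.07, 2.68 and 3.12 in BJ-hTERT doxycycline arrays, against 3.87, 3.29 and 3.67 in BJ-hTERT mock arrays, and 6.16, 6.11 and 6.25 in HEK293 doxycycline arrays, against 4.16, 4.04 and 4.53 in HEK293 mock arrays (difference -2.58 ± 0.24). The R-cadherin gene CDH4 read 4.35, 4.12 and 4.05 in BJ-hTERT doxycycline arrays, against 5.06, 4.99 and 4.80 in BJ-hTERT mock arrays, and 4.44, 4.47 and 4.14 in HEK293 doxycycline arrays, against 3.57, 3.34 and 3.60 in HEK293 mock arrays. CDH4 was thus higher in BJ-hTERT than in HEK293 among mock arrays, while the doxycycline arrays of the lines overlapped. Its difference was -1.62 ± 0.23 (adjusted p = 0.00031). The protocadherin gene PCDH10, a homophilic adhesion molecule, read 8.08, 8.37 and 8.36 in BJ-hTERT doxycycline arrays, against 8.66, 8.59 and 8.86 in BJ-hTERT mock arrays, and 7.89, 8.03 and 8.15 in HEK293 doxycycline arrays, against 6.28, 6.53 and 6.51 in HEK293 mock arrays. Its difference was -2.01 ± 0.18 (adjusted p = 2.9e-06), and here too the doxycycline arrays of the lines overlapped.

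CCDC85B read 5.94, 5.94 and 5.92 in BJ-hTERT doxycycline arrays, against 7.01, 6.84 and 6.93 in BJ-hTERT mock arrays, and 5.24, 5.20 and 5.37 in HEK293 doxycycline arrays, against 4.67, 4.37 and 4.45 in HEK293 mock arrays (difference -1.77 ± 0.17). The heparan sulfate proteoglycan gene SDC1 (syndecan-1) differed by -1.49 ± 0.21, the ephrin receptor gene EPHA2 by -1.26 ± 0.20, and DOCK10, which encodes a guanine nucleotide exchange factor, by -1.43 ± 0.20. The membrane-binding copine gene CPNE7 differed by -1.53 ± 0.20, the oxysterol-binding protein gene OSBPL6 by -1.37 ± 0.16, the coactivator gene ZMIZ1 by -1.11 ± 0.19 and the nuclear importin gene IPO4, chosen after its values were seen, by -1.28 ± 0.17. Each of these 12 genes fell in BJ-hTERT and rose in HEK293.

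The other 5 rose in BJ-hTERT and fell in HEK293. The lipase gene LIPH, whose product makes lysophosphatidic acid, read 4.56, 5.02 and 4.51 in BJ-hTERT doxycycline arrays, against 3.80, 3.96 and 4.01 in BJ-hTERT mock arrays, and 5.48, 4.84 and 5.11 in HEK293 doxycycline arrays, against 6.08, 6.00 and 5.71 in HEK293 mock arrays (difference 1.56 ± 0.27). RWDD2A differed by 1.45 ± 0.21. The steroid sulfatase gene STS, the flippase gene ATP9A and the laminin gene LAMB2 differed by 1.39 ± 0.15, 1.27 ± 0.17 and 1.00 ± 0.16, and these 3 were chosen after their values were seen. The count of 17 rests on 3 tests passed at once and moved most with the processing: it was 9 to 16 without single arrays and 2 under the median of probe sets.

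**Figure D4:**
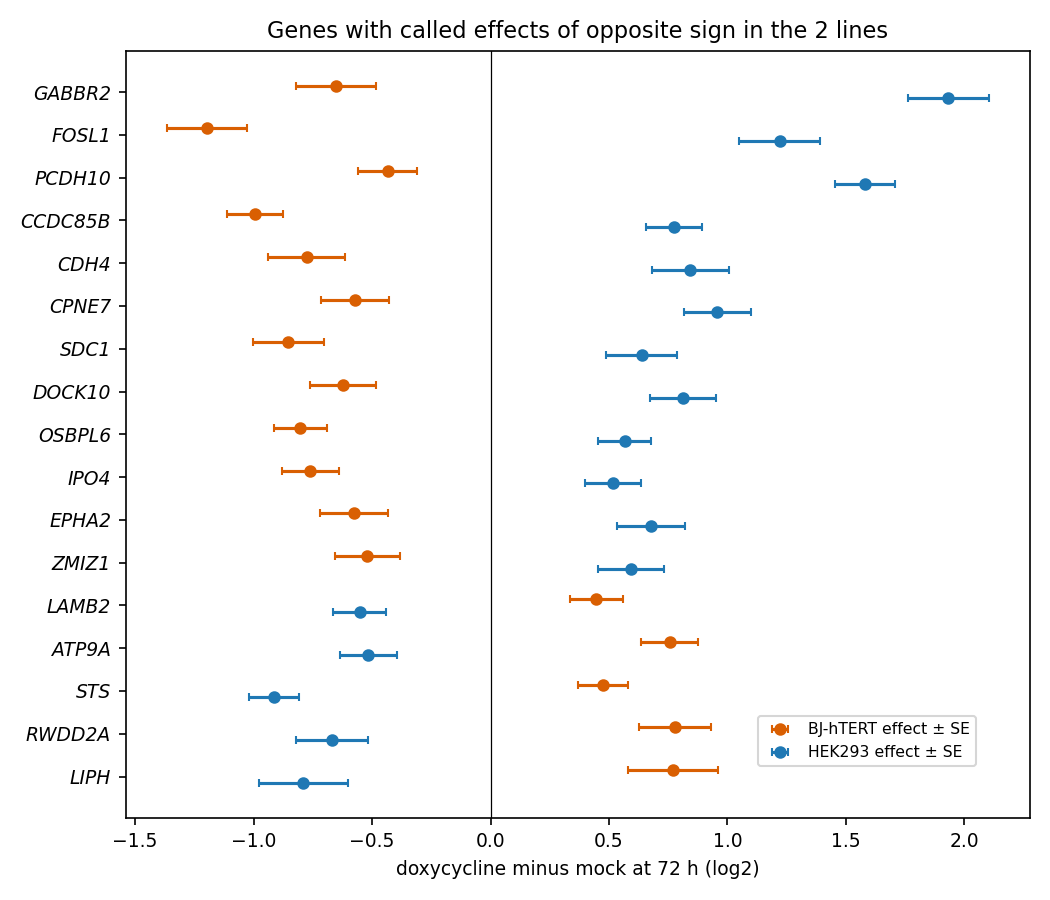
Doxycycline effect at 72 h (log2, ± SE of the limma contrast, n = 3 arrays per group) in BJ-hTERT (orange) and HEK293 (blue) for the 17 genes called for the line difference and in each line with opposite signs. The upper 12 fell in BJ-hTERT and rose in HEK293, and the lower 5 did the reverse.

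In several gene groups no member was called for the line difference. Over all genes tested 5.27% were called, so lists of this size can hold no call without standing apart. None of 25 interferon-stimulated genes, 15 heat shock and chaperone genes, 21 mitochondrial respiration genes or 6 genes of the 14-3-3 family was called for the line difference, with list medians of -0.08, 0.07, -0.05 and -0.18. Among them, the difference was 0.76 ± 0.32 for the interferon-stimulated gene USP18 and -0.21 ± 0.14 for YWHAG, which encodes 14-3-3 gamma. Over the interferon-stimulated genes BJ-hTERT mock replicate 3 averaged 4.85, against 5.44 and 5.47 on the other BJ-hTERT mock arrays, and without it 4 of the 25 were called. With 200 genes changed in simulated data, 2-fold line differences were recovered in 44% of them. The data held 914 calls, and the Benjamini-Hochberg cutoff depends on how many genes differ. The share recovered in the data can therefore be another one, but smaller differences can be present without a call. Of 35 HOX genes 5.71% were called, close to the share of all genes tested. These were 1 above 0, HOXA5, and 1 below, HOXB6 (-1.06 ± 0.28), which rose in HEK293 and lay below the filter value in BJ-hTERT. HOXB6 lost its call in 8 of 23 alternatives, and its difference was -0.34 with the median of probe sets.

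At 24 h 821 genes were called (4.74%), 272 above 0 (1.57%) and 549 below (3.17%), and 334 genes were called at both times with the same sign, 36.5% of the 72 h calls and 40.7% of the 24 h calls, while 0 were called with opposite signs. The 24 h estimate had the sign of the 72 h estimate in 843 of the 914 genes, against 10737 of the 17329 genes tested. The median line difference of the mitosis list was -1.11 at 24 h, and the PLK1 difference was -1.15. ERK pathway output genes stood at a median of 0.00 at 24 h, with 2 called above 0 and 3 below, among them FOSL1 (-1.48) and EPHA2 (-0.91). SPRY4 had a 24 h difference of -0.28, JUNB of -0.10 and ETV4 of 0.02, none called. LGMN (0.31), GPLD1 (0.22), SERPINI1 (0.41) and SFRP1 (-0.49) were not called at 24 h either. The change of the line difference over time was itself tested: limma called 0 of 17329 genes (0%), with 1395 at an unadjusted p under 0.05 and a lowest adjusted p of 0.37. For SPRY4 that change was -1.34 ± 0.35 and for ETV4 -1.09 ± 0.26, so a later onset was not established for either.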

How the data were processed

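Total RNA of the cells was hybridised to Human Gene 2.1 ST arrays of Affymetrix. The deposited values are log2 intensities, 1 per probe set. For them the submitters' processing notes list RMA (robust multi-array averaging), GCOS and Expression Console, while oligo and limma appear in the design text. The sources used here give neither versions nor an array batch.

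From the deposited log2 values, the 257971 probe sets with 1 gene symbol, of 352859, were averaged per gene. A gene was tested if any group mean reached log2 2.83, the 40th percentile of group means, which kept 17329 of 25029. One limma fit (limma 3.58.1, R 4.3.3) of 8 group means to 24 arrays with eBayes gave every contrast. The 24 h arrays entered only the filter, the estimate of spread and the contrasts that involve 24 h. Benjamini-Hochberg adjustment ran over all genes tested, and over all probe sets for NUTM2. Genes carry the array's symbol, with the current one where it differs (23358 were current, 1621 updated and 50 unmatched).

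Members and lists were chosen with earlier results of these data known. Named genes are the 15 largest called differences in each direction with groups apart in at least 1 line. Added to them are up to 12 with opposite and up to 8 with equal signs, the 4 of smallest p in each of 41 lists, and NUTM2 probe sets. The rule also asked for the 5 largest called changes over time in each direction, but 0 genes were called, so it gave none. Small RNAs, pseudogenes and uncharacterised genes were passed over, some genes the rule gives are not printed, and genes outside it are marked.

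The test was tried on simulated data with 200 of 17329 genes given a line difference. It recovered 4% of 1.5-fold, 44% of 2-fold, 80% of 4-fold and 38% of 0.5-fold differences, with 6 false calls. Fewer genes were changed there than the 914 called in the data, and the adjustment depends on that number. These shares therefore do not measure recovery in the data. Promoters came from a RefSeq collection, with the first entry used per symbol, and motifs were searched on both strands in the 200 bases before the start. Alternatives covered the arrays in the fit, replicate blocks, filters, probe set summaries, normalisation, the variance model and leaving out each 72 h array. The number of arrays limits the precision of every value.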

Additional observations from a re-analysis of the deposited data

Results flagged for a closer look

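In 17 genes the difference in effect between the lines was called and the effect in each line was called with opposite signs. The 12 taken by the naming rule are given here. The line difference (BJ-hTERT effect minus HEK293 effect, log2) was -2.42 for FOSL1, -1.62 for CDH4, -1.77 for CCDC85B, -2.58 for GABBR2, -1.49 for SDC1, -1.43 for DOCK10, -1.26 for EPHA2, -1.53 for CPNE7, -1.37 for OSBPL6 and -1.11 for ZMIZ1, all of which fell in BJ-hTERT and rose in HEK293. It was 1.56 for LIPH and 1.45 for RWDD2A, which rose in BJ-hTERT and fell in HEK293.

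Outside the gene table, 19 distinct probe sets were called for the line difference. Of these 15 are not listed with a gene and 4 carry several symbols, among them one naming MSH5, MSH5-SAPCD1 and SAPCD1 with a difference of -2.17, where the effect was -0.20 in BJ-hTERT and 1.97 in HEK293.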

How the results depend on the processing

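The 914 calls for the line difference became 560 with only the 12 arrays of 72 h (245 above 0, 315 below, 8 of opposite signs), 592 with replicate number within line and time as a block (248 above 0, 10 of opposite signs) and 383 when probe sets were summarised by their median (175 above 0, 208 below, 2 of opposite signs). Under the median, calls in BJ-hTERT became 826 and in HEK293 88. Without a filter 11 genes had opposite signs. Of the 914 genes, 57.4% were also called with the 12 arrays and 32.1% with the median. Leaving out single 72 h arrays gave 651 to 751 calls, 275 to 343 above 0, 375 to 428 below 0 and 9 to 16 of opposite signs, with 1080 to 1498 calls in BJ-hTERT and 143 to 215 in HEK293. It gave 0 calls for the change from 24 to 72 h and 0 NUTM2 calls throughout. 

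Arrays with the same replicate number deviated together only weakly at 72 h (r = 0.004 to 0.045 in HEK293 and 0.026 to 0.086 in BJ-hTERT). Arrays with different numbers gave r = -0.041 to 0.023 in HEK293 and -0.047 to 0.022 in BJ-hTERT. In BJ-hTERT every same-number value lay above these, so whether the numbers pair the arrays is not settled. With the replicate block shared by all groups, 862 genes were called. The mitosis list held 12 to 26 called members and the replication list 17 to 27 over all alternatives. Of 125 named genes called, 68 kept the call in every one of the 24 alternatives that gave a value for them and 57 lost it in at least 1. Among uncalled genes, TCF7L2 turned to -0.0798 with the median of probe sets, and YWHAH ranged over -0.45 to 0.0958 without single arrays, above 0 without HEK293 mock replicate 3. The cause was not tested. Levels below the filter value and genes with 1 probe set limit the sizes given.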

Other observations

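Some members of the hypoxia, ATF4 and NRF2 lists were called for the line difference, in both directions and nearly all through BJ-hTERT. Heat shock and mitochondrial respiration genes held no call. Over all genes tested 2.42% were called above 0 and 2.85% below. Of 25 hypoxia and glycolysis genes 3 were called above 0 and 2 below, with a list median of -0.02. With the median of probe sets 1 was called. The collagen prolyl hydroxylase gene P4HA1 (0.76 ± 0.15), the hypoxia-induced gene NDRG1 (0.97 ± 0.22) and the aldolase gene ALDOC (0.99 ± 0.24) rose in BJ-hTERT, and the enolase gene ENO1 fell there (-0.69 ± 0.18). The calls of ALDOC and ENO1 were lost in 4 and 8 of 24 alternatives. Of 30 ATF4 and amino acid response genes 2 were called above 0 and 3 below, but 1 to 4 in all without single arrays and 1 with only the 12 arrays of 72 h or with the median of probe sets. Among them CTH, of cysteine synthesis, rose in BJ-hTERT (1.34 ± 0.34), while the serine synthesis genes PSAT1 (-0.71 ± 0.18) and PHGDH (-0.59 ± 0.16) fell there. These calls were lost in 8 (CTH), 6 (PSAT1) and 14 (PHGDH) of 24 alternatives. The glutathione synthesis gene GCLC (0.85 ± 0.22) was 1 of 2 called of 14 NRF2 genes, both above 0. The count was 0 to 2 without single arrays, and the GCLC call was lost in 9 of 24 alternatives. None of these was called in HEK293.

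Of 22 semaphorin, plexin and neuropilin genes 2 were called above 0 and 2 below, and of 14 BCL2 family genes 0 above and 2 below. With the median of probe sets 1 gene of each list was called. Over all genes tested 2.42% were called above 0 and 2.85% below. The guidance factor gene SEMA3E rose in BJ-hTERT (difference 1.30 ± 0.26) and SEMA7A fell there (-1.08 ± 0.31, a call lost in 14 of 24 alternatives). The pro-apoptotic gene BAX fell in BJ-hTERT (-0.84 ± 0.17), and BIK, another pro-apoptotic gene, rose in HEK293 by 1.21 log2 (-1.16 ± 0.30, a call lost in 9 of 23 alternatives). CTGF (now CCN2), a YAP target, rose in BJ-hTERT by 1.07 log2 (0.95 ± 0.24), whereas AXL and FJX1 of the same list of 20 fell there.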
